A study of Mus musculus with 6 samples.

Results

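The voltage-gated calcium channel, voltage-gated sodium channel and HCN channel gene families were examined in whole mouse retina at postnatal day 17. Members were the rows whose symbol starts with Cacna, Cacnb, Cacng, Scn or Hcn directly followed by a digit, which gave 44 of the 22173 genes listed. The 3 Control libraries came from wild-type C57BL/6J pups kept in room air from day 7 to day 17. The 3 libraries of oxygen-induced retinopathy (OIR) came from wild-type C57BL/6J pups held in 75% oxygen from day 7 to day 12 and in room air from day 12 to day 17. In this model oxygen halts and reverses vessel growth, and the poorly perfused retina later grows abnormal vessels. Nothing in the labels ties the replicates to different pups, and the p-values therefore cover only the spread between these libraries, which may be technical.

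Voltage-gated calcium and sodium channels are built around a large pore-forming alpha subunit that opens when the membrane depolarises. Calcium channels of the high-voltage type also carry a cytoplasmic beta subunit and an extracellular alpha2delta subunit, which set trafficking and gating, and sodium channels carry small beta subunits with an adhesion domain. HCN channels instead open on hyperpolarisation and are tuned by cyclic AMP. Rods and cones signal with graded potentials and release glutamate through a slowly inactivating calcium channel built from Cacna1f, Cacnb2 and Cacna2d4, whereas ganglion cells and some amacrine cells fire sodium spikes.

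Recovered depth was 35615501 to 38025623 reads per library. Values are RPKM (reads scaled to gene length and library size), which allows levels of different genes to be set side by side only as far as the authors' gene lengths, not given in the sources used here, are comparable. Genes of the lens took 6.91% of reads in Control 3, 0.593% in OIR 2 and 0.0222% to 0.0682% in the other 4 libraries. The summed level of 14 rod genes, the most abundant cell type of the mouse retina, was 14444 RPKM in Control 3 and 16909 to 17849 RPKM in the other 5 libraries. Genes at 1 RPKM or more in at least 3 libraries were tested with limma on log2(RPKM + 1), so fold changes of low genes are understated, and p-values were adjusted over all 12112 tested genes (Benjamini-Hochberg, threshold 0.05). Each adjusted p below is from limma unless another test is named.

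Of the 44 members, 38 passed the filter on low values, 4 were higher in OIR, 8 were lower and 26 did not pass the threshold. Among all tested genes 11.6% were called higher and 7.22% lower, together 18.8%. The higher members were Scn4a, Cacna1h, Cacna1f and Cacna2d4. The lower members described here were Cacna2d3, Cacnb4, Scn1a, Scn2a and the sodium beta genes Scn2b, Scn3b and Scn4b. The median log2 fold change was -0.08 over the 38 members and 0.03 over all tested genes. The groups did not overlap in 5 members with OIR higher and 11 with OIR lower, together 16 of 38, where 23.6% and 15.0% of all tested genes did so, together 38.7%. Higher genes made up 61.7% of all calls as deposited and 49.4% with median-of-ratios scaling, under which 4 members were higher and 11 lower. The 3 members added by that scaling were Cacna1g, Cacna2d1 and Cacng3. Lower counts of members moved by over 1.5 times, to 3 without Control 1, 4 without Control 2, 2 without OIR 1, 4 without OIR 3 and 13 without OIR 2. Without the 2 libraries that held most lens reads, Control 3 and OIR 2, 4 members were higher and 16 lower.

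**Figure D1:**
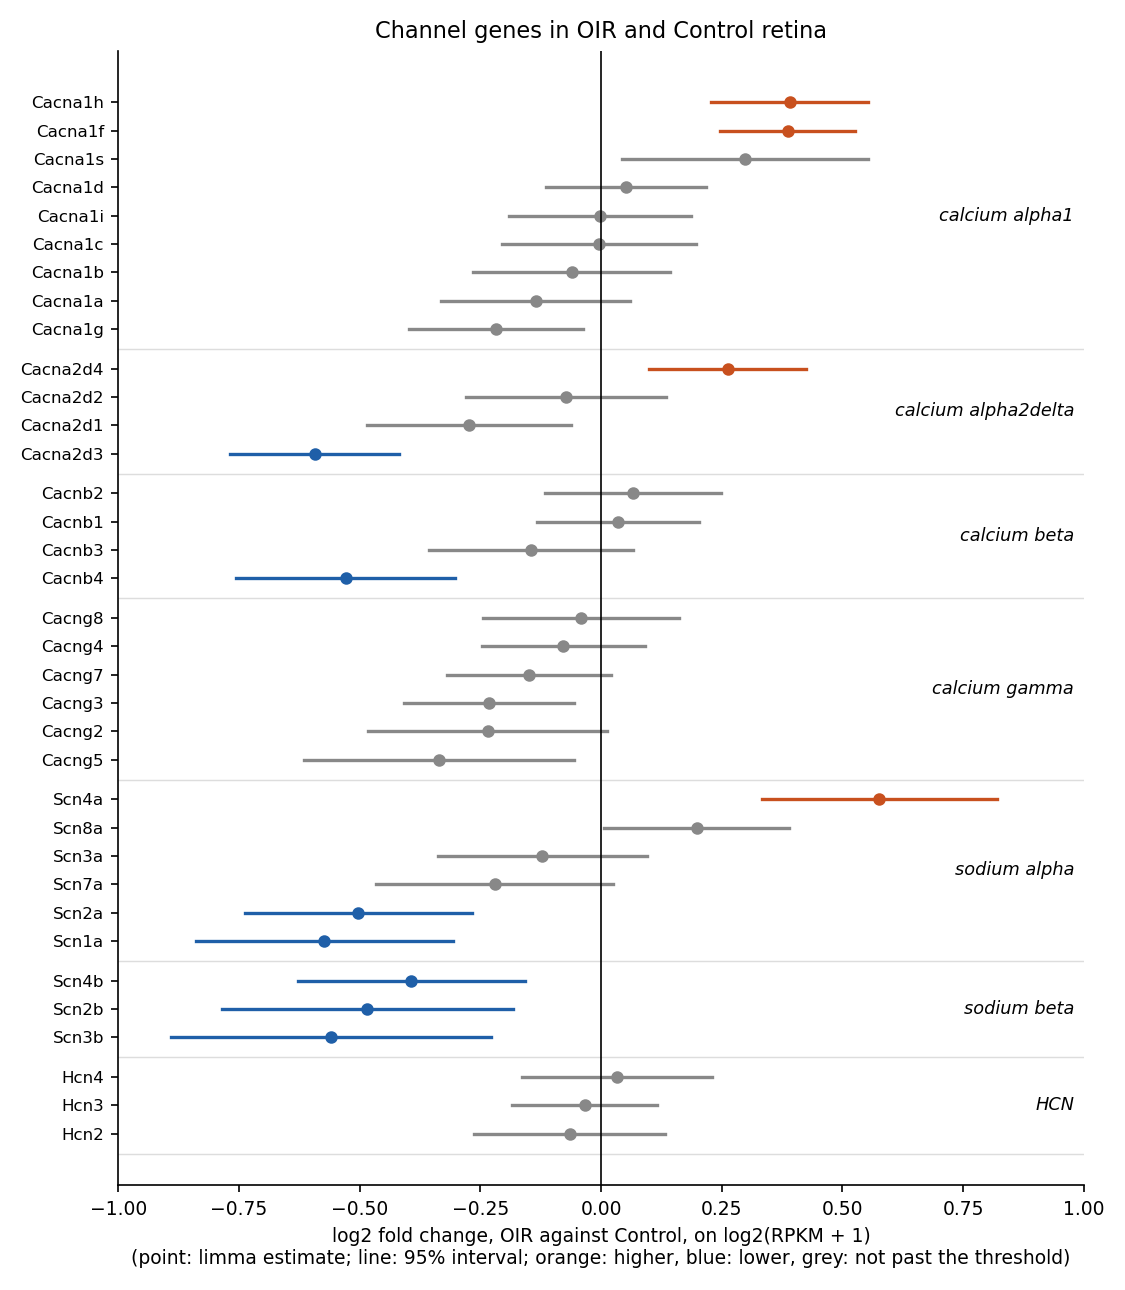
The x axis gives the limma log2 fold change of OIR against Control on log2(RPKM + 1) for the tested members described here, grouped by subunit class, with lines for 95% intervals; orange marks higher, blue lower and grey not past the threshold. The sodium beta genes shown lie left of 0 with intervals that exclude it, while the intervals of the HCN genes shown include 0.

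Among the calcium channel pores, the photoreceptor gene and a T-type gene rose, and none of the 9 tested alpha1 genes fell. Cacna1f, which encodes the pore of the photoreceptor ribbon synapse channel, was at 47.3, 49.0 and 46.5 RPKM in Control 1 to 3. Its OIR values were 66.4, 60.8 and 60.6 RPKM. Every OIR library therefore lay above every Control library, a ratio of group means of 1.31 with a log2 fold change of 0.39 ± 0.06 (SE) and an adjusted p of 0.00375. Cacna1h, a T-type pore gene whose channel opens at small depolarisations, was at 15.3, 16.1 and 13.6 RPKM in Control, against 20.2, 19.5 and 20.2 RPKM in OIR. The OIR libraries were close to each other and all above Control, at a ratio of 1.33 and an adjusted p of 0.00691.

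The other T-type genes did not follow Cacna1h. Cacna1g was at 14.9, 14.6 and 12.9 RPKM in Control, with OIR at 11.2, 13.2 and 11.6 RPKM, so that OIR 2 overlapped Control 3. Its adjusted p was 0.0881, and it fell past the threshold with median-of-ratios scaling (0.0393), upper-quartile scaling (0.0370) and lens reads removed (0.0385), and without Control 3 (0.0446) or OIR 2 (0.0299). Cacna1i was at 7.54 ± 0.849 RPKM in Control, against 7.501 ± 0.234 RPKM in OIR (SD, n = 3 each), with a 95% interval of the log2 fold change from -0.19 to 0.19. The 3 T-type genes thus had log2 fold changes of 0.39, -0.22 and 0.00.

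The 4 L-type genes, which share sensitivity to dihydropyridines, had a median log2 fold change of 0.17. Cacna1d, the L-type pore gene used widely by inner retinal neurons, was at 4.80 ± 0.279 RPKM in Control, with OIR at 5.01 ± 0.127 RPKM and an interval from -0.12 to 0.22. Cacna1s, known as the skeletal muscle pore gene, was at 2.63, 3.10 and 1.99 RPKM in Control, against 3.43, 3.04 and 3.62 RPKM in OIR. OIR 2 overlapped Control 2 in this gene, and its adjusted p was 0.0958, or 0.0496 without Control 2. Cacna1c, the pore gene of heart and smooth muscle that neurons also use, was at 1.249 RPKM in Control, with OIR at 1.241 RPKM, with an interval from -0.21 to 0.20.

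The presynaptic P/Q-type and N-type pore genes Cacna1a and Cacna1b, which drive release at conventional synapses, had log2 fold changes of -0.14 and -0.06 and intervals that included 0. Cacna1a passed as lower without Control 3 and OIR 2 together, at an adjusted p of 0.0291. The R-type gene Cacna1e was under the filter at 0.281 to 0.341 RPKM in all 6 libraries, although 549 to 679 reads lay behind each value. The smallest length that makes its values whole reads is 53736 bases, against 25228 bases of joined exons in GENCODE M21 and RPKM divides reads by length.

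The promoters of both L-type genes with the largest log2 fold changes of that type are shown because Cacna1f is the photoreceptor pore gene and Cacna1s moved in the same direction without passing. Each is the 250 bases before the RefSeq start on GRCm38.p6, 5′ to 3′. Cacna1f lies at chrX:7606853-7607102 and Cacna1s at chr1:136052561-136052810, both on the plus strand. Capitals mark TAATCC, a motif bound by the photoreceptor factor CRX, searched on both strands.
Cacna1f: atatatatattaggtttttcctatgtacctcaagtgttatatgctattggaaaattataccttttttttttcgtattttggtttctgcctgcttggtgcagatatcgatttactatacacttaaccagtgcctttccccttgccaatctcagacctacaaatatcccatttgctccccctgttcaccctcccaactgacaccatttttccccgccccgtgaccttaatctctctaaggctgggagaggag
Cacna1s: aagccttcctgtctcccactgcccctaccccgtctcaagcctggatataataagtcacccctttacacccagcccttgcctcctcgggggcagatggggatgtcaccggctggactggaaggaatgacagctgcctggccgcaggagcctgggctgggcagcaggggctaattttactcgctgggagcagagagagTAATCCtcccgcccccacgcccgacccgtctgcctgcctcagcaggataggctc
The motif starts 54 bases before the start in Cacna1s and these letters do not occur in the Cacna1f window. It was present in 6.25% of all 32851 promoters and in 3 of the 43 promoters listed for 32 members, those of Cacna1s, Cacng8 and Scn7a. ACGTG, the core of the hypoxia-response element, was also searched on both strands. It was present in 16.6% of all promoters and in 3 of the 43, of Cacna1c, Cacnb1 and Cacng6. Neither Cacna1c nor Cacnb1 passed the threshold as higher or lower, and Cacng6 was under the filter and not tested.

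The alpha2delta genes, whose products anchor calcium channels at the surface and at synapses, included 1 that rose and 1 that fell, and 2 did not pass. Cacna2d4, the alpha2delta gene of rods and cones, was at 75.5, 76.5 and 66.4 RPKM in Control, against 92.2, 83.6 and 86.3 RPKM in OIR. Its OIR libraries were all above Control, with a ratio of 1.20 and an adjusted p of 0.0326. That call ended without Control 1, OIR 1 or OIR 3, at 0.0727, 0.148 and 0.0922, and with no filter, at 0.0647. Cacna2d3, known from inner retinal and other central neurons, was at 20.6, 20.6 and 19.0 RPKM in Control. It was at 13.02, 14.2 and 11.7 RPKM in OIR, below every Control library, with a ratio of 0.647, a log2 fold change of -0.59 ± 0.08 (SE) and an adjusted p of 0.00123, the smallest among the members.

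Cacna2d1, the binding target of gabapentin, was at 3.14, 2.69 and 2.49 RPKM in Control, with OIR at 1.94, 2.38 and 2.03 RPKM. The groups did not overlap, but its adjusted p was 0.0694. It was past the threshold at 0.0178 with limma-voom on recovered reads, at 0.0445 with median-of-ratios scaling and at 0.0288 without OIR 2. Cacna2d2 was at 19.4 ± 1.80 and 18.4 ± 2.12 RPKM, a difference below the spread between libraries. Within the class, Cacna2d4 held 63.3% ± 1.02 of the summed alpha2delta level in Control and 72.2% ± 2.69 in OIR, and Cacna2d3 held 17.5% ± 0.450 and 10.7% ± 0.986 (SD, n = 3 each).

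Of the 4 beta genes, whose products bind the pore inside the cell, Cacnb4 fell and 3 did not pass. Cacnb4, a neuronal beta gene, was at 3.82, 3.18 and 2.93 RPKM in Control, against 1.82, 2.29 and 1.84 RPKM in OIR. All OIR values were under all Control values, at a ratio of 0.599 and an adjusted p of 0.00778. GENCODE M21 places exons of an opposite-strand gene over 1433 bases of its exons, and without knowledge of strand the reads of both cannot be told apart. The same limit holds for other members, among them Cacna1s (1309 bases), Hcn3 (711), Cacnb2 (at least 618), Cacna1d (589) and Cacna1h (158). Cacnb2, the photoreceptor beta gene, was at 27.6 ± 3.16 and 28.8 ± 0.275 RPKM, with an interval of the log2 fold change from -0.12 to 0.25. Cacnb1 and Cacnb3 had log2 fold changes of 0.03 and -0.15, also with intervals that included 0.

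Most gamma genes expressed in the retina encode TARPs, proteins that carry and tune AMPA-type glutamate receptors more than calcium channels. The 6 tested TARP genes, Cacng2, Cacng3, Cacng4, Cacng5, Cacng7 and Cacng8, all had negative log2 fold changes, from -0.34 to -0.04 with a median of -0.19. None passed with limma or with limma-voom on recovered reads, and 2 had an unadjusted p under 0.05, both lower. Cacng3 was at 42.2, 38.6 and 34.3 RPKM in Control, with OIR at 31.4, 34.1 and 31.8 RPKM. Its groups did not overlap, Control 3 and OIR 2 being close, and its adjusted p was 0.0644, or 0.0266 with median-of-ratios scaling. Cacng5 was at 14.9, 13.9 and 11.8 RPKM in Control, against 9.08, 12.8 and 9.76 RPKM in OIR, where OIR 2 overlapped Control 3. Without Control 3 Cacng3 and Cacng7 passed as lower, at adjusted p of 0.0211 and 0.0388. Without OIR 2 Cacng2, Cacng3 and Cacng5 passed, at 0.0113, 0.0414 and 0.00356. Without both libraries 5 of the 6 passed as lower. Without OIR 1, Cacng8 had a log2 fold change of 0.00 in place of -0.04.

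The muscle gamma genes Cacng1 and Cacng6 gave at most 4 recovered reads in any library. Cacng1 summed to 9 reads in Control and 5 in OIR, and Cacng6 to 1 and 0, where a count of 0 allows up to 3 reads. The smallest fitting length of Cacng6 was 402 bases, against 1977 bases of joined exons in GENCODE M21. Its true read number may therefore be higher.

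Of 11 tested sodium channel genes 1 rose and 6 fell, beside 3 and 2 of 23 calcium channel genes. Called genes were 63.6% of the sodium genes and 21.7% of the calcium genes, where 18.8% of all tested genes were called. The difference between families was not tested. The beta genes described here, whose products speed gating and hold channels at the cell surface, fell. Scn2b was at 23.8, 23.0 and 21.1 RPKM in Control, against 13.8, 20.3 and 14.2 RPKM in OIR. Every OIR library was below every Control library, with OIR 2 nearest to Control, and the ratio was 0.712.

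Scn3b was at 12.4, 11.9 and 10.8 RPKM in Control, with OIR at 6.25, 10.02 and 6.98 RPKM, a ratio of 0.662. Scn4b, which supplies the blocking particle of resurgent sodium current, was at 1.32, 1.32 and 1.22 RPKM in Control, against 0.717, 0.993 and 0.542 RPKM in OIR. OIR 2 was again the highest OIR library in both genes. Scn4b passed the filter only through the Control libraries, and its call is given with that limit. With a filter of 0.5 RPKM its adjusted p was 0.0297. The adjusted p of Scn2b, Scn3b and Scn4b were 0.0368, 0.0313 and 0.0283. The calls of Scn2b and Scn3b ended without Control 1, Control 2, Control 3, OIR 1 or OIR 3, at 0.0542 to 0.128. That of Scn4b ended without OIR 1 or OIR 3, at 0.102 and 0.108. Without Control 1, Control 2 or Control 3, or without Control 3 and OIR 2, Scn4b was under the filter and was not tested. With no filter none of these 3 passed, at 0.0549 to 0.0726. All kept a negative log2 fold change in each setting in which they were tested.

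Among sodium channel pores, the main neuronal genes diverged. Scn1a, a pore gene of axon initial segments, was at 9.997, 7.29 and 7.48 RPKM in Control, with OIR at 4.59, 5.90 and 5.08 RPKM. All OIR values were lower, at a ratio of 0.629 and an adjusted p of 0.0113, which was 0.0556 without OIR 1. Scn2a, the pore gene of unmyelinated axons and young neurons, was at 6.68, 5.73 and 5.75 RPKM in Control, against 3.40, 4.77 and 3.83 RPKM in OIR. It fell to a ratio of 0.661, at an adjusted p of 0.0110, and 0.0515 without Control 1 or 0.0564 without OIR 1.

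Scn8a, the pore gene of mature nodes and initial segments, did not fall with them. Its Control values were 7.71, 7.69 and 6.48 RPKM and its OIR values 8.87, 7.81 and 8.83 RPKM, all above Control. OIR 2 exceeded Control 1 by little, and the adjusted p was 0.135 with an interval of the log2 fold change from 0.01 to 0.39. The ratio of Scn1a to Scn8a, which does not depend on library scaling, was 1.30, 0.948 and 1.15 in Control and 0.517, 0.755 and 0.575 in OIR. The log2 ratio was lower in OIR by 0.89, with an exact two-sided permutation p of 0.1, the smallest that 3 against 3 libraries can give.

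Scn4a rose most among the members. This gene, known for the pore of skeletal muscle fibres, was at 4.25, 3.97 and 3.02 RPKM in Control, with OIR at 6.66, 5.44 and 6.05 RPKM. Its OIR libraries were all higher, at a ratio of 1.61, a log2 fold change of 0.58 ± 0.11 (SE) and an adjusted p of 0.00743. Of 15 skeletal muscle markers, 12 were under 1 RPKM in every library. The summed level of the 15 was 7.42 to 12.6 RPKM in Control and 7.70 to 9.47 RPKM in OIR. Of the muscle myosin heavy chain genes Myh4 was at 0 in every library. Of the 2 muscle markers that could be tested, Mylpf was higher (3.26 to 4.68 RPKM) and Acta1 lower (2.78 to 1.96 RPKM). Their part in the rise of Scn4a was not tested.

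**Figure D2:**
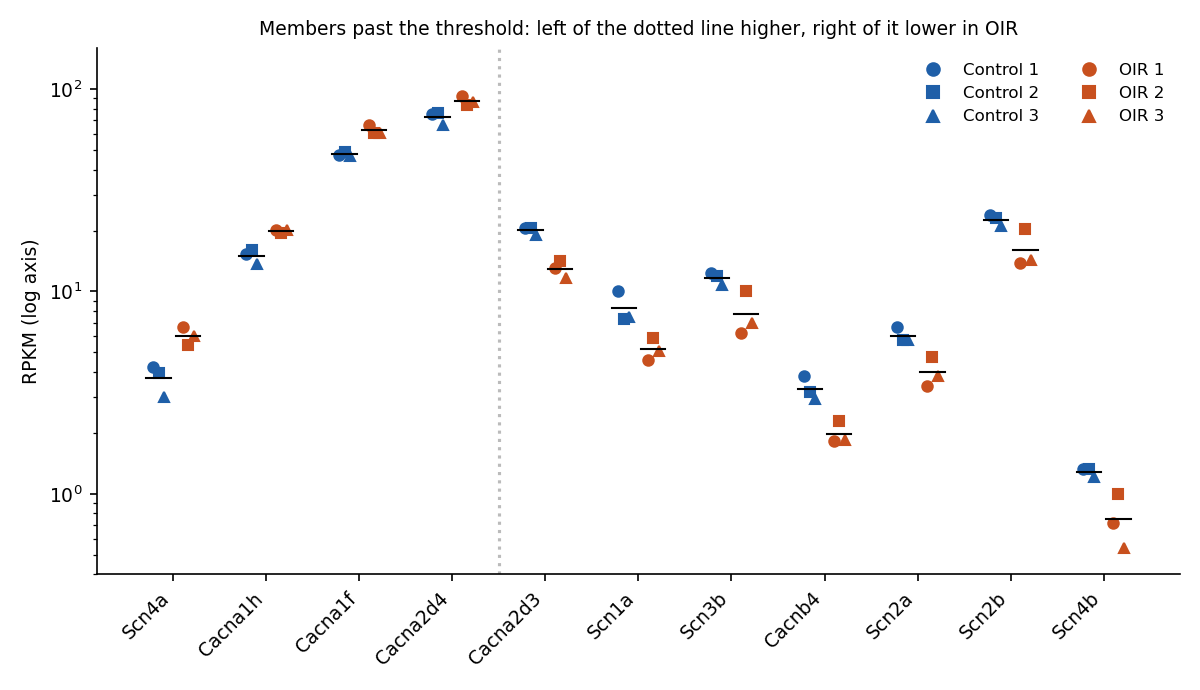
RPKM on a log axis for the members past the threshold that are described here, 1 point per library with black lines at the group means. The 4 genes left of the dotted line have all OIR points above Control; in the sodium beta genes right of it OIR 2, the square, lies nearest to Control.

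The remaining sodium pore genes were low. Scn3a, an embryonic pore gene, was at 1.44 ± 0.228 and 1.24 ± 0.134 RPKM. Scn7a, an atypical sodium-sensing member, was at 1.63, 1.09 and 1.10 RPKM in Control, against 1.0, 0.793 and 1.04 RPKM in OIR. Its groups did not overlap, Control 1 stood above the rest, and its adjusted p was 0.189. Scn9a, known from pain-sensing neurons, was under the filter with 103 to 142 reads per library, 343 in all Control and 359 in all OIR libraries. Scn10a was at 0 reads in every library, which allows up to 3 reads in each.

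Scn11a, the pore gene of persistent sodium current in pain-sensing neurons, was under the filter but had the lowest ratio of reads, OIR to Control, of the members with over 10 reads in a library, 0.178. It was singled out after its values were seen. It gave 52, 57 and 43 reads in Control 1 to 3 and 6, 14 and 7 reads in OIR 1 to 3. The 95% Poisson intervals of the summed reads, for counting error only, were 128.8 to 178.2 in Control and 17.8 to 39.3 in OIR. With limma-voom on recovered reads, over genes with at least 10 reads in 3 libraries, its log2 fold change was -2.55 ± 0.44 (SE) with an adjusted p of 0.00362. It passed that filter through Control and OIR 2 only. Leaving out single libraries gave log2 fold changes from -2.91 to -2.33 and adjusted p from 0.00136 to 0.0261, but without OIR 2 the gene passed that filter through Control alone. As the gene was chosen for its values, these are a description and no support. Its level in Control, 0.203 to 0.259 RPKM, was far below that of Scn1a or Scn8a.

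In RefSeq's gene order Scn3a lies beside Scn2a, Scn1a beside Scn9a, Scn9a beside Scn7a, and Scn10a beside Scn11a. Of these neighbours, Scn2a fell while Scn3a did not pass, and Scn1a fell beside Scn9a, whose summed reads had a ratio of 1.05. Scn2b and Scn4b, also neighbours, both fell. Cacna2d4 lies near Cacna1c with Dcp1b between them, and of this pair the first rose while the second had a log2 fold change of 0.00.

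The share of each sodium pore gene in the alpha sum was computed per library and is given without a test. The summed RPKM of the 10 alpha genes was 29.6 ± 3.72 in Control and 27.2 ± 0.269 in OIR. Scn1a held 27.8% ± 2.15 of that sum in Control and 19.0% ± 2.31 in OIR, and Scn2a 20.5% ± 1.05 and 14.7% ± 2.48. Scn8a held 24.7% ± 1.99 and 31.2% ± 2.35, and Scn4a 12.6% ± 1.22 and 22.2% ± 2.44 (SD, n = 3 each). Scn1a had the highest mean share in Control, and Scn8a the highest in OIR. In Control 2, however, Scn8a (26.86%) was already above Scn1a (25.45%). The order also depends on gene length. The smallest fitting lengths were 8608 bases for Scn1a and 14742 for Scn8a, against 11146 and 15766 bases of joined exons in GENCODE M21. For each of Scn1a, Scn2a, Scn8a and Scn4a the OIR shares lay entirely on one side of the Control shares. Shares within a library add up to a fixed whole, so lower shares of some genes raise those of others. By its own level Scn8a did not pass the threshold.

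**Figure D3:**
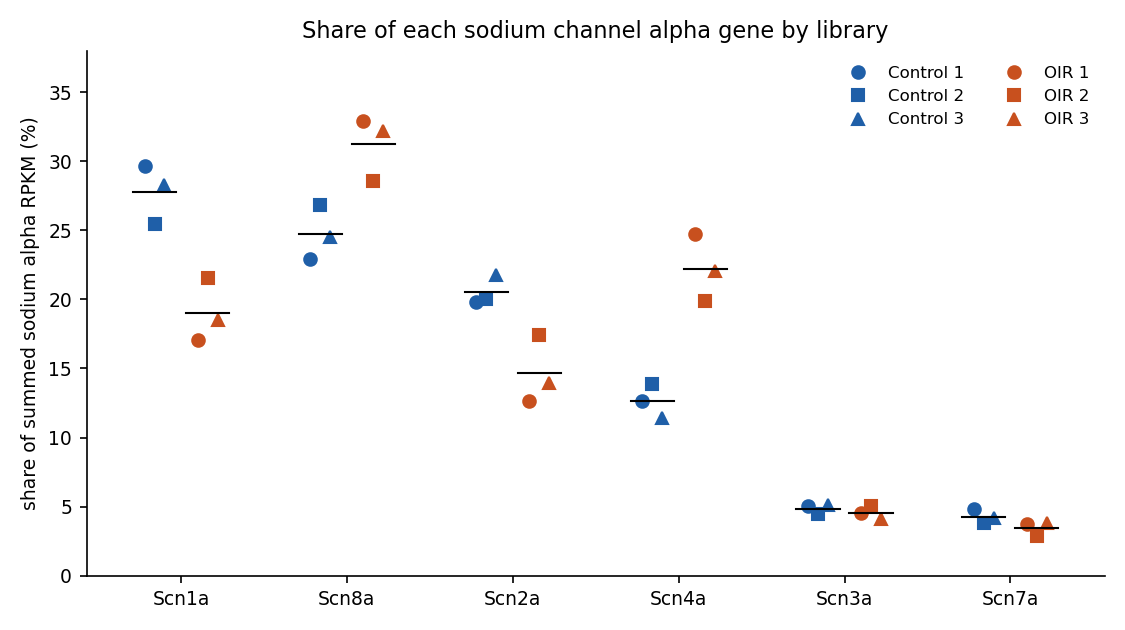
Share of the summed sodium alpha RPKM in percent for the alpha genes described here that held over 2% in Control, 1 point per library with black lines at group means. Scn1a and Scn2a sit lower and Scn8a and Scn4a higher in every OIR library than in every Control library.

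None of Hcn2, Hcn3 and Hcn4 passed the threshold. These genes, the last known from bipolar cells and the heart pacemaker, had means of 12.8, 11.98 and 5.75 RPKM in Control, against 12.2, 11.7 and 5.88 RPKM in OIR. The 95% intervals of their log2 fold changes ran from -0.26 to 0.13, from -0.18 to 0.12 and from -0.16 to 0.23. None of the 3 passed with limma-voom on recovered reads, and none had an unadjusted p under 0.05 with limma. Hcn2 and Hcn3 did not differ from each other in level beyond their spread, and Hcn4 lay below both.

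Members were also grouped by where they are mainly known to act. The counts of members and markers below stand beside 11.6% of all tested genes called higher and 7.22% called lower. Of the 3 photoreceptor channel genes, Cacna1f and Cacna2d4 rose and Cacnb2 did not pass. Of 28 tested members assigned to the inner retina, 8 fell, 1 (Cacna1h) rose and 19 did not pass, with a median log2 fold change of -0.15. Of 7 tested members assigned elsewhere or to both sites, 1 (Scn4a) rose, 0 fell and 6 did not pass, with a median of -0.03. Beside them, 3 of 14 tested rod genes and 2 of 10 cone genes were higher, 1 cone gene was lower, and their medians were 0.09 and 0.17. Of 15 ganglion cell markers 6 were lower, and of 14 amacrine markers 12 were lower, with medians of -0.44 and -0.43. Of 15 bipolar markers 6 were lower, with a median of -0.25. Of 11 Müller glia markers 6 were lower and 2 higher, with a median of -0.31, and their sum was 2808 to 2963 RPKM in Control and 2615 to 2776 RPKM in OIR. Of 5 tested horizontal cell markers 1 was lower, and the sum of that list was 85.9 to 96.0 RPKM in Control and 59.7 to 74.6 RPKM in OIR. Neither sum overlapped between the groups.

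The summed ganglion cell markers were at 1103 to 1229 RPKM in Control, with OIR 1 to 3 at 719, 1067 and 804 RPKM. The amacrine sum was 838 to 932 RPKM in Control, against 576, 778 and 613 RPKM in OIR. OIR 2 was the highest OIR library in both sums, as it was in Scn1a, Scn2a and the sodium beta genes described here. It was also highest in Cacna2d3, Cacnb4, Cacna2d1, Cacng2, Cacng3 and Cacng5, so the order was not particular to sodium genes. The bipolar and horizontal cell sums had OIR 2 highest as well, at 682.5 and 74.6 RPKM. The Müller glia sum was nearly equal in OIR 2 (2774.7 RPKM) and OIR 3 (2775.7 RPKM), with OIR 1 lower at 2614.7 RPKM. The part of these markers in the channel results was not tested, and in whole tissue fewer cells of a type and less RNA per cell cannot be told apart. Endothelial and pericyte markers were higher in 11 of 13, with sums of 79.9 to 84.9 RPKM in Control and 146.0 to 164.1 RPKM in OIR.

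In all, 7 pairs of isoform genes were compared as ratios within a library, of which 5 are given here. The ratio of Cacna1f to Cacna1d was 9.58 to 10.4 in Control and 11.8 to 13.5 in OIR, and that of Cacna1f to Cacna1a 5.40 to 6.58 and 7.86 to 9.72. The ratio of Cacna2d4 to Cacna2d1 was 24.0 to 28.4 in Control and 35.1 to 47.5 in OIR, and that of Cacnb2 to Cacnb4 7.63 to 9.30 and 12.5 to 15.97. In each of these 4 pairs the ratio was higher in every OIR library than in every Control library. Log2 ratios were higher in OIR by 0.33, 0.55, 0.65 and 0.81. Each gave an exact two-sided permutation p of 0.1, the smallest possible here, and 0.14 adjusted over the 7 pairs. As the pairs were chosen with earlier results of these data known, the ratios describe the member changes above and add no separate support. In the last of these pairs the limma log2 fold change was 0.07 for Cacnb2 and -0.53 for Cacnb4.

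**Figure D4:**
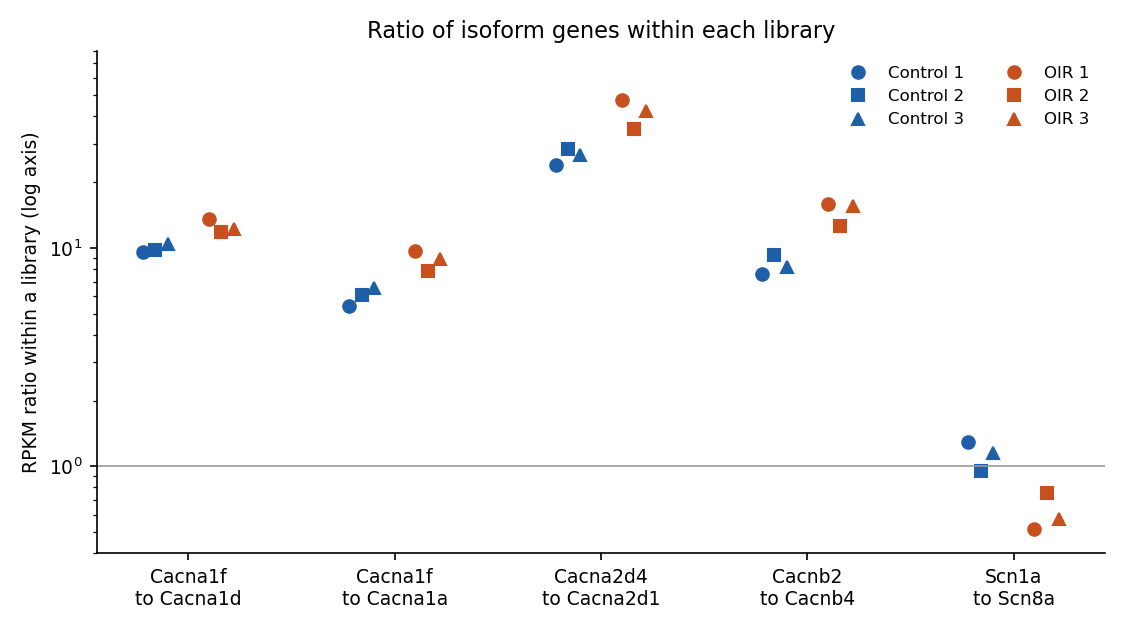
RPKM ratio of 2 genes within each library, on a log axis, for 5 pairs. The ratios of the first 4 pairs, each a photoreceptor gene over another gene of its class, are higher in all OIR libraries. That of Scn1a to Scn8a is lower.

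Lists were also read of genes whose products bind, anchor or work alongside these channels, and not all of them are direct partners. For all list counts that follow, the share over all tested genes was 11.6% called higher and 7.22% called lower. Of 19 sodium channel partners and axon initial segment genes, 6 were lower and 1 was higher, with a median log2 fold change of -0.11. The intracellular FGF homologues, which bind the tail of sodium channel pores, split: Fgf13 was at 7.08, 7.36 and 6.20 RPKM in Control, with OIR at 3.73, 4.97 and 3.69 RPKM. Fgf12 fell from 11.2 ± 1.18 to 7.23 ± 1.37 RPKM, while Fgf11 rose from 25.5 ± 1.602 to 32.8 ± 2.84 RPKM. Their adjusted p were 0.00435, 0.0110 and 0.0133. Nalcn, the gene of the sodium leak channel, fell from 11.9 ± 1.11 to 8.41 ± 0.913 RPKM.

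Of 21 tested calcium channel partners and synaptic anchors, 7 were lower and 1 was higher. Cabp5 and Cabp1, calcium-binding proteins that tune calcium channels, fell from 42.3 ± 5.35 to 30.0 ± 1.80 RPKM and from 53.3 ± 4.31 to 39.7 ± 4.12 RPKM. Rgs7bp, the anchor of an RGS protein complex, fell from 9.49 ± 1.38 to 5.39 ± 0.802 RPKM, and the calmodulin gene Calm2 from 465.3 ± 21.5 to 351.2 ± 41.1 RPKM. Cabp5 is also a bipolar cell marker, and 6 of 15 such markers were lower. Of 25 tested genes of calcium extrusion, stores and buffering, 6 were lower and 1 was higher, among them the buffer genes Calb1, from 43.9 ± 3.54 to 27.7 ± 3.83 RPKM, and Pvalb, from 11.3 ± 0.323 to 7.54 ± 1.30 RPKM. Calb1 is also the horizontal cell marker that was lower.

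Of 11 HCN channel partners, 2 were higher and 3 lower. Kcne2, a small accessory subunit reported for HCN and potassium channels, was at 42.1, 39.8 and 37.2 RPKM in Control, against 50.7, 46.4 and 54.6 RPKM in OIR. Its OIR libraries were all above Control, at a ratio of 1.27 and an adjusted p of 0.0132. The adenylyl cyclase gene Adcy2 fell from 26.9 ± 2.62 to 20.8 ± 2.88 RPKM (SD, n = 3 each).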

How the data were processed

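RNA of whole retina was sequenced in 6 libraries, 3 Control and 3 OIR, grouped by title. The deposited values are RPKM-type, 1 per gene symbol, as the values themselves show. Per the submitters' processing notes, the tools included TopHat2 2.0.12 and Bowtie2 2.0.6. Which program counted reads, with which strand setting, build or annotation, is not given in the sources used here, and the library protocol in the labels describes another species. Reads were recovered as whole multiples of 1 read (tolerance 0.02), with GENCODE M21 transcript lengths setting the scale, and 17952 of 17953 genes above 0 came out whole. The smallest fitting length was used, so true read numbers may be multiples.

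The planned test for normalized values was used: limma 3.58.1 in R 4.3.3, trend and robust, on log2(RPKM + 1), group as only term, two-sided. It was also run on simulated counts with the same noise setting for all genes and no difference in lens reads between libraries. That run cannot show how the calls hold up in these libraries. Count tests were not the main result, since the values are not counts. The limma-voom fit on recovered reads with a minimum of 10 reads in 3 libraries was added after seeing the data. Ratios within libraries used exact permutation. Poisson intervals cover counting error only. Members, lists, isoform pairs and alternatives were chosen with earlier results of these data known. By the rule for named genes, the text takes every member, up to 4 genes per partner list by adjusted p (2 where none passed), and markers by sums. Promoters are from RefSeq (GRCm38.p6), which listed 32 of 44 members. Some members, a partner and isoform pairs are not reported here, though counts include them.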

Additional observations from a re-analysis of the deposited data

How the results depend on the processing

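Of the 12 members past the threshold, all 12 kept their sign in every alternative in which they were tested, and 5 kept their call in all 16 alternatives other than the added fold requirement: Cacna1f, Cacna1h, Cacna2d3, Cacnb4 and Scn4a. As deposited, 1407 genes were higher and 875 lower, with 4 and 8 members. With no filter 529 genes and 5 members were lower. Lower genes numbered 1313 with median-of-ratios and 1355 with upper-quartile scaling. Without Control 3 and OIR 2, 1877 genes and 16 members were lower. Requiring a 1.5-fold change on log2(RPKM + 1) as well, with limma, left 346 genes higher and 98 lower, and 0 members higher and 1 lower, Cacna2d3. No tested member reached that fold upward on this scale at any p. The scale understates low genes: by group means Scn4a had a ratio of 1.61, and Cacnb4, Scn1a and Scn4b ratios of 0.599, 0.629 and 0.583. Leaving out single libraries gave 410 to 1645 genes higher, 198 to 1281 lower, 3 to 5 members higher and 2 to 13 lower. The cause of these moves was not tested.

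Deviations of same-numbered libraries from their group means had correlations of 0.22, -0.44 and -0.41. The highest correlation, 0.49, was between Control 3 and OIR 2, the 2 libraries that held most lens reads. With 3 libraries per group this check cannot exclude a pairing by number. With the replicate number as a block 1222 genes and 4 members were higher and 809 genes and 7 members lower. The isoform log2 ratios kept their sign without each library in turn. RPKM near the filter rested on few reads in some members: Scn4b had 98 to 234 per library and Cacng8 116 to 146. Other members near it had more, such as Cacna1c with 621 to 801 and Scn3a with 862 to 1281.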
